A study of Homo sapiens with 6 samples.

Results

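Of the protein-coding genes measured in A549 cells, 193 were higher after heating at 41.5 °C than at 37 °C and lower again after heating at 44 °C, whether or not the cells were irradiated. They were chosen by their values: a mean log2 level of 5 or more over the 6 arrays, a rise of at least 0.3 from 37 °C to 41.5 °C in both the pair without and the pair with radiation, and a fall of at least 0.3 from 41.5 °C to 44 °C in both. The 193 are 2.47% of the 7806 protein-coding genes at that level, which are part of 14884 named genes, each represented by its feature of highest mean level. The differences alone were met by 220 genes (2.82%), of which 18 zinc finger genes named ZNF and 9 other named genes were set aside here. Because these values made the choice, the rise and fall are given below as a description, without a test.

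A549 is an established line of human lung adenocarcinoma cells with epithelial features. All cells were cultured for 24 h at 37 °C. The 6 groups hold 1 array each: untreated cells (control); 3 Gy of X-rays, then 3 h at 37 °C (IR); 1 h at 41.5 °C or at 44 °C, then 3 h at 37 °C (HT 41.5 and HT 44); and either heating with 3 Gy given directly after it (IR_HT 41.5 and IR_HT 44). The time from the combined treatments to harvest is not stated, and none is given for the control, so a difference from the control can include time in culture. With 1 array a group, a single difference has no replicate check, and the labels do not tell whether separate cultures lie behind the arrays. The p-values here therefore speak of array-to-array spread, part or all of which can be technical.

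Heat unfolds proteins, and cells answer through heat shock factor with chaperones, while stronger heating also halts much of transcription, splicing and translation and disturbs the nucleolus. The nucleolus is where ribosomal RNA is made, cut, modified and packed with proteins by assembly factors that work one after another. NF-kappaB proteins are transcription factors held inactive until a signal frees them or, for the p100 precursor made by NFKB2, until the kinase encoded by MAP3K14 starts its processing. Both systems have members among the 193 genes.

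Values are RMA-normalized log2 intensities, so a difference of 1 is a doubling. In an additive limma model with temperature and radiation the median residual SD was 0.113, and the median standard error of a difference between temperatures was 0.138, a precision limited by the number of arrays. Among markers of cell identity, 6 of the 8 epithelial genes listed were measured, with a highest level of 11.51 for KRT18. Only 1 measured marker each of leukocytes (CD14 of 3), endothelial cells (CLDN5 of 5) and fibroblasts (THY1 of 3) reached a level of 5, and with 4 epithelial genes they were the 7 of 17 measured markers that could meet the rule; 0 did. In limma 0 of the 17 were called at 41.5 °C against 37 °C, and 3 were at 44 °C against 41.5 °C: CD14 (0.77, adjusted p = 0.00362) and EPCAM (0.45, adjusted p = 0.0249) higher and KRT7 (-0.40, adjusted p = 0.023) lower. Their part in the members' differences was not tested. The median marker level of a list moved over the arrays between 6.28 and 6.56 for epithelial, 4.79 and 4.98 for leukocyte, 3.71 and 3.93 for endothelial and 2.62 and 3.15 for fibroblast genes. RNA amount cannot be compared between groups here, since RMA sets the arrays to near-equal distributions, and fewer cells cannot be told apart from less RNA per cell.

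The typical member was about 1.4-fold higher at 41.5 °C and came back. The median rise was 0.47 from the control to HT 41.5 (range 0.30 to 1.49) and 0.52 from IR to IR_HT 41.5 (0.31 to 1.41), and the median difference at 44 °C from 41.5 °C was -0.64 without and -0.57 with radiation. The mean of the rises had a median of 0.50, or 1.41-fold. Only 5 genes at least doubled by that mean, 60 were at least 1.5-fold higher and 133 less. The 5 were FJX1, TRIML2, NAV3, THBS1 and TIPARP. In limma (Benjamini-Hochberg adjusted p under 0.05 over all 14884 genes), 135 members were called higher at 41.5 °C than at 37 °C, beside 2.18% of all genes, and 192 lower at 44 °C than at 41.5 °C, beside 7.23%; the same arrays chose the genes, so these counts test nothing. They also depend on the moderation: without the intensity trend limma called 1 member and 8 of all genes higher at 41.5 °C, and 107 members lower at 44 °C than at 41.5 °C. Below, a rise is the mean of both differences between 41.5 °C and 37 °C, and a gene is said to have risen only where it was called with the trend. The called counts of each group below are parts of the same 135, beside 2.18% of all genes. They and the word risen are description, not a test. In 192 of the 193 genes both 41.5 °C arrays were above all 4 others, LACC1 being the exception. This separation was found in 1484 of the 7806 genes. For the members it is largely fixed by the rule, which leaves free only comparisons between an irradiated and an unirradiated array. At the edge of the rule, MYO5B (smallest of its 4 differences 0.3001) and SH2D4A (0.3006) were just inside, and CEP41 (0.2982) and ZFR (0.2958) just outside. MYO5B, a myosin motor, read 5.41 in the control, 5.31 in IR, 5.71 in HT 41.5, 5.73 in IR_HT 41.5, 5.28 in HT 44 and 5.13 in IR_HT 44. For ZFR, an RNA-binding zinc finger protein, the same arrays gave 9.57, 9.43, 9.90, 9.83, 9.40 and 9.54. SH2D4A, an SH2 domain protein, read 8.0, 7.96, 8.30, 8.41, 7.90 and 7.77, and CEP41, a centrosomal protein, 6.23, 5.93, 6.53, 6.33, 5.84 and 6.01. Genes on either side of the limit thus had nearly the same course.

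**Figure D1:**
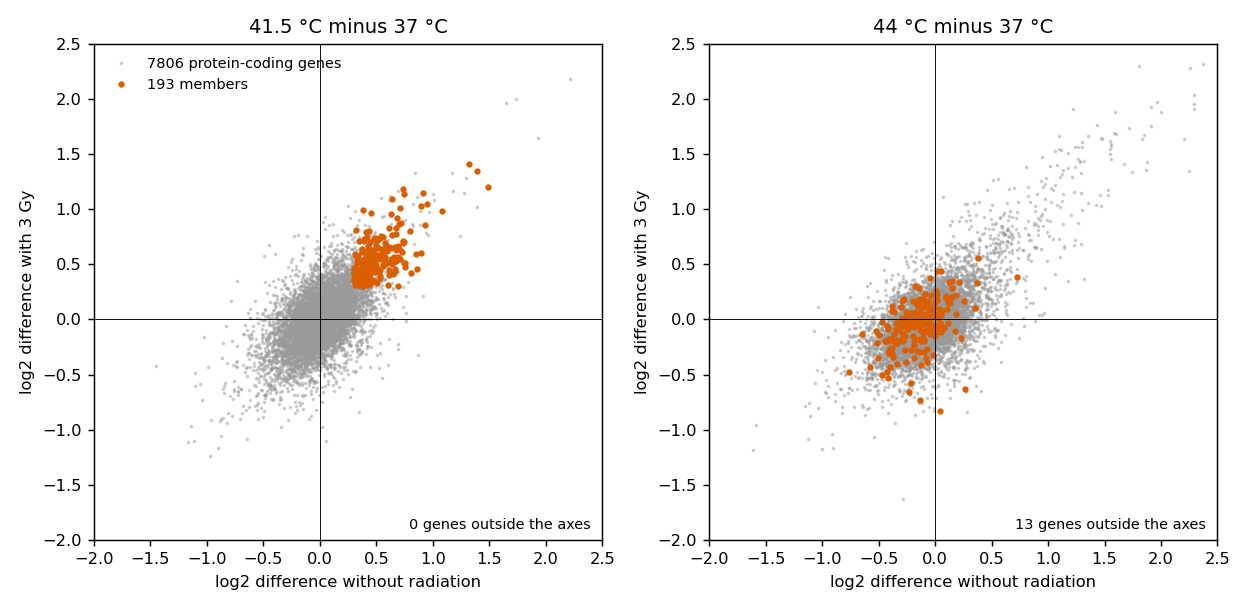
Each point is 1 of the 7806 protein-coding genes at a mean log2 level of 5 or more. The left panel sets the log2 difference between 41.5 °C and 37 °C without radiation (x axis) against that with radiation (y axis), the right panel the difference between 44 °C and 37 °C; members are coloured, and they lie above 0.3 on both axes at left by choice and around 0 at right.

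The arrays without and with radiation share no array, so the rule can be read in each set of 3. Without radiation, 429 of the 7806 genes (5.5%) were higher at 41.5 °C and lower at 44 °C by 0.3 or more, and with radiation 575 (7.37%) did. The 220 found in both were 51.3% of the first list (95% Wilson interval 46.6 to 56.0, counting error only) and 38.3% of the second. That interval treats genes as independent, which genes read on the same arrays are not. Of the 209 genes found only without radiation, 169 had both signs in the other set, and of the 355 found only with radiation, 264 did. Those with both signs missed the limit in at least 1 step of the other set. The share of all 7806 genes with both signs was not counted, so these counts have no background to be read against. Other array features of the same gene existed for 6 members. For 4 of these, BCL9L, BET1L, DNMBP and TPM1, the other feature, at a level of 3.77 to 6.12, did not have the 4 signs of the rule. For CHTOP and IER3 it did, the 10 other features of IER3 holding only 3 distinct sets of values.

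The promoters of 156 of the 193 genes were found in a RefSeq table of 27305 promoters (assembly GRCh38.p14), each with 250 bases before and 50 after the start of the gene, and 6 are printed here to show NF-kappaB and E-box matches in members described below. The first 4 carry a match to the NF-kappaB site, in capitals, which 8.33% of the members' promoters held (13 of 156), 6.72% of those of all 6492 matched protein-coding genes at the same level and 5.72% of all promoters. FJX1 and SDC4 are among the 3 members at the head of the order by smallest difference, and NFKB1 and CXCL2 are NF-kappaB genes. The windows are chr11:35618210-35618509 on the plus strand for FJX1, chr20:45348375-45348674 on the minus strand for SDC4, chr4:102501109-102501408 on the plus strand for NFKB1 and chr4:74099146-74099445 on the minus strand for CXCL2. The last 2 carry the E-box CACGTG, in capitals, which the FJX1 promoter also holds, left in small letters. These last 2 belong to ribosome assembly genes, UTP25 at chr1:209827722-209828021 on the plus strand and PUM3 at chr9:2844046-2844345 on the minus strand. All are written 5′ to 3′ along the gene.
FJX1: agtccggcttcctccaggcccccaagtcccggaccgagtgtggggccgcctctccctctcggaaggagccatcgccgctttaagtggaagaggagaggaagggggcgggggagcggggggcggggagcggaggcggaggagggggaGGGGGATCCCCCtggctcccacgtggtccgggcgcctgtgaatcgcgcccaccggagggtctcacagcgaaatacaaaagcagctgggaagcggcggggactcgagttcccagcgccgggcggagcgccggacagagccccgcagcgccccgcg
SDC4: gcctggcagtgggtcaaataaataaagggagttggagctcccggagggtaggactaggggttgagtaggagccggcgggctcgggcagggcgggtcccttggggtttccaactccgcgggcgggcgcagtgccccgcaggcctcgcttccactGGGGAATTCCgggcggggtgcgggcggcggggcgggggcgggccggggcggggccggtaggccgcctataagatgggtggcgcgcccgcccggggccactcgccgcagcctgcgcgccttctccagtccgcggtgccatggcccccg
NFKB1: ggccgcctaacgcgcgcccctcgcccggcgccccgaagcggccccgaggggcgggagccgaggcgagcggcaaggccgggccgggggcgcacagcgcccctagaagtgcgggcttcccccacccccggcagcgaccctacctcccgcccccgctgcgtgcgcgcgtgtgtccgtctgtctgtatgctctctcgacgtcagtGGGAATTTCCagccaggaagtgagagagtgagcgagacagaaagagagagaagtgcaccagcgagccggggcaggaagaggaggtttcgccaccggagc
CXCL2: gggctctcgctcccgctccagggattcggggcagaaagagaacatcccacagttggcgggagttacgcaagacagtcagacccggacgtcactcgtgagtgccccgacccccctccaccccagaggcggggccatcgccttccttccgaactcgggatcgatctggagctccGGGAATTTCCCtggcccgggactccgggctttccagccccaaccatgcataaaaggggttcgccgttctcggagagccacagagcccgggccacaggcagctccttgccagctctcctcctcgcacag
UTP25: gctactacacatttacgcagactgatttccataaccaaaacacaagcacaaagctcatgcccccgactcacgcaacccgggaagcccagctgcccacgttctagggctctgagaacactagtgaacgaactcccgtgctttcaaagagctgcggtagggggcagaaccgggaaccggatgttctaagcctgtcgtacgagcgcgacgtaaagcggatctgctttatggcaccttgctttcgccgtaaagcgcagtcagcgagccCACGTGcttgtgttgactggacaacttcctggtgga
PUM3: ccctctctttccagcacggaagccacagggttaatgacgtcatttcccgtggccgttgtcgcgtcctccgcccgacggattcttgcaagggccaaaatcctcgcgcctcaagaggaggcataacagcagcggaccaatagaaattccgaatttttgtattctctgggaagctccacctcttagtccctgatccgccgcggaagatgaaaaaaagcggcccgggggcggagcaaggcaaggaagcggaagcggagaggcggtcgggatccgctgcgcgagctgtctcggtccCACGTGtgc
The NF-kappaB matches start 104, 103 and 102 bases before the start in FJX1 (overlapping readings of 1 stretch), 97 before it in SDC4, 49 in NFKB1 and 78 and 77 in CXCL2, the latter also overlapping. A match describes letters in this window and is not a binding site.

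The secreted and cell-surface group (16 genes, 13 called higher at 41.5 °C, median rise 0.56) held FJX1, the member with the widest margin. FJX1, a secreted protein related to Drosophila four-jointed and a target of the growth regulator YAP, read 7.52 in the control and 7.40 in IR, 8.91 in HT 41.5 and 8.74 in IR_HT 41.5, and 7.39 in HT 44 and 7.45 in IR_HT 44. Its 41.5 °C arrays stood clear of 4 arrays that lay together, with a mean rise of 2.58-fold and a mean difference of -0.04 between 44 °C and 37 °C. SDC4, the heparan sulfate proteoglycan syndecan-4, read 8.77 and 8.92 at 37 °C (control, IR), 9.72 and 9.96 at 41.5 °C (HT, IR_HT) and 8.77 and 8.83 at 44 °C. SDC4 thus rose 2.0-fold and its 44 °C arrays were back at the control. THBS1, the matrix glycoprotein thrombospondin-1, read 8.30 and 8.06 at 37 °C, 9.22 and 9.21 at 41.5 °C and 8.68 and 8.62 at 44 °C, so that it came only part of the way down. The growth factor FGF2 (mean rise 0.60) and the EGF receptor ligand EREG (0.72) were in the same group.

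**Figure D2:**
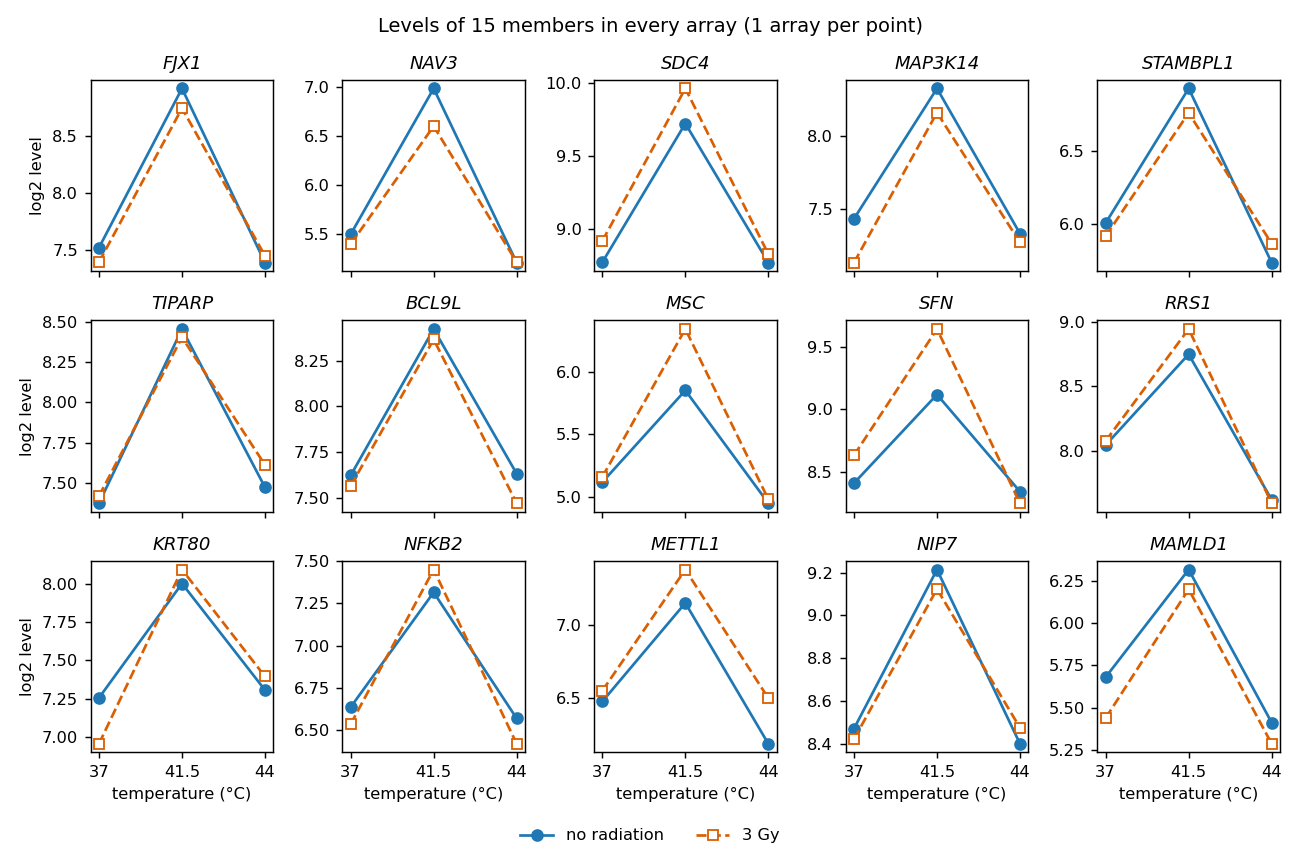
Log2 level (y axis) of the 15 members with the widest margin in each of the 6 arrays, 1 point per array at 37, 41.5 and 44 °C (x axis), with and without radiation. In each panel the 41.5 °C points lie above the points at both other temperatures.

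Among 15 cytoskeletal and adhesion genes, 14 called higher at 41.5 °C, the median rise was 0.58. NAV3, a microtubule-binding navigator protein, read 5.50 and 5.40 at 37 °C (control, IR), 6.99 and 6.6 at 41.5 °C and 5.21 and 5.22 at 44 °C, a 2.54-fold rise to a level that both other temperatures missed by more than 1. KRT80, an epithelial keratin, read 7.26 and 6.96, then 8.0 and 8.09, then 7.31 and 7.39. In KRT80 the IR array was the lowest, and the 44 °C arrays were above both 37 °C arrays. Adhesion proteins of this group had smaller rises: VCL, the focal adhesion protein vinculin, by 0.54, FERMT1, the integrin activator kindlin-1, by 0.63 and CSRP1, a LIM protein of actin fibres, by 0.58. AJUBA, a LIM protein of cell junctions, rose by 0.66, and NHS, a regulator of actin at the cell edge, by 0.61.

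The NF-kappaB group (7 genes, 6 called higher at 41.5 °C, median rise 0.59) contained kinase, subunits and targets. MAP3K14, the NF-kappaB-inducing kinase, read 7.43 and 7.13 at 37 °C (control, IR), 8.33 and 8.16 at 41.5 °C and 7.33 and 7.27 at 44 °C, a 1.95-fold rise with no overlap between 41.5 °C and the rest. NFKB2, the p100 and p52 subunit, read 6.63 and 6.53, then 7.32 and 7.45, then 6.57 and 6.42. NFKB1, the p105 and p50 subunit, rose by 0.59 and the adhesion molecule ICAM1 by 0.67. CFLAR, an inhibitor of caspase-8 activation, rose by 0.51, IER3, an early response gene, by 0.55, and the neutrophil chemokine CXCL2 differed by 0.43 without being called. All 7 had a mean difference between 44 °C and 37 °C from -0.39 (CXCL2) to 0.04 (ICAM1). Of the 26 genes on a list of NF-kappaB targets without the chemokines set aside, 12 were measured and 9 reached a level of 5; 5 of these 9 met the rule (55.6%, against 2.82% of the 7806 genes). In limma with Benjamini-Hochberg adjustment over all 14884 genes, 4 of the 12 were higher at 41.5 °C than at 37 °C (2.18% of all genes) and 0 lower (1.1%); these 4 are NFKB1, NFKB2, ICAM1 and CFLAR, and the call of each used the values that chose it. CXCL2 (0.43 ± 0.14 SE) missed the threshold at an adjusted p of 0.156. The lowest of the 12 at 41.5 °C was CXCL3, at 0.08. At 44 °C against 41.5 °C, 5 were lower (7.23% of all genes) and 0 higher (4.9%). Without the intensity trend 0 were called higher at 41.5 °C. The list's medians were 0.38 and -0.41, and those of all genes 0.00 and -0.02.

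Ribosome assembly factors formed the largest group, 32 genes, 25 of them called higher at 41.5 °C, with differences of 0.33 to 0.78. RRS1, which brings the 5S particle into the large subunit precursor, read 8.05 and 8.08 at 37 °C (control, IR), 8.75 and 8.94 at 41.5 °C and 7.62 and 7.60 at 44 °C. Each pair agreed closely, and the 44 °C arrays were the lowest of the 6. NIP7, needed for maturation of preribosomal RNA, read 8.47 and 8.42, then 9.21 and 9.12, then 8.40 and 8.48, with 37 °C and 44 °C overlapping. Further members of the group act at different steps. URB2 (0.68), NIFK (0.59), MAK16 (0.57), PUM3 (0.63) and GRWD1 (0.65), a histone and ribosomal protein chaperone, belong to large subunit assembly. UTP25 (0.61), NOL6 (0.53), RRP12 (0.65) and LTV1 (0.57) belong to small subunit assembly or export, and GPATCH4 (0.49) is a nucleolar G-patch protein. These values are mean rises at 41.5 °C over the 2 pairs. Beside this group, POLR3B, a core subunit of the RNA polymerase that transcribes 5S and transfer RNA, rose by 0.48.

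A list of ribosome biogenesis factors gives the genes around them. Of its 28 genes, 17 were measured, all at a level of 5 or more, and 7 met the rule (41.2%, against 2.82%): RRS1, NIP7, RRP12, GRWD1, LYAR, DDX21 and NOP2. At 41.5 °C against 37 °C, limma called 7 of the 17 higher (2.18% of all genes) and 0 lower, with a list median of 0.33 against 0.00. Without the intensity trend it called 0. The 7 called were RRS1, NIP7, RRP12, GRWD1 and DDX21, whose calls used the values that chose them, and NOP58 and NOP16, which did not meet the rule. At 44 °C against 41.5 °C limma called 11 lower (7.23%) and 1 higher (4.9%), with a median of -0.36 against -0.02. The 1 higher was NOP58 (0.30, adjusted p = 0.0163), and NOP16 differed by -0.02 (adjusted p = 0.926). NOP2, a ribosomal RNA methyltransferase, differed by 0.33 ± 0.08 (SE) and LYAR, a nucleolar DNA-binding protein, by 0.49 ± 0.14, and neither passed at 41.5 °C (adjusted p = 0.0679 and 0.0979). DDX21, a nucleolar RNA helicase, rose by 0.38. The highest of the 17 at 41.5 °C was RRS1 and the lowest the box C/D methyltransferase FBL, at -0.12 (adjusted p = 0.453). Without the control array or without the IR array, limma called 0 genes of this list and 0 of the NF-kappaB list higher at 41.5 °C; without the HT 41.5 or the IR_HT 41.5 array it called 2 or 1 of the NF-kappaB list, and without either 44 °C array 11 of the ribosome list.

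**Figure D3:**
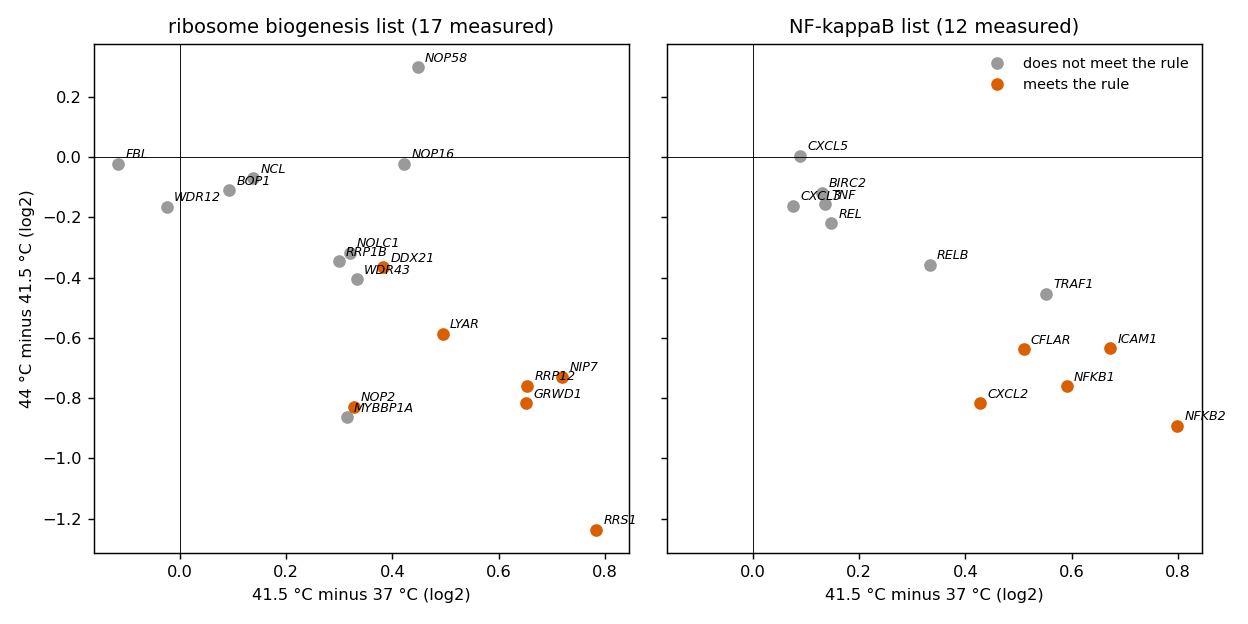
Log2 difference of each measured gene of the ribosome biogenesis list and the NF-kappaB list between 41.5 °C and 37 °C (x axis) and between 44 °C and 41.5 °C (y axis), as means of the pairs with and without radiation. All genes are named, and those that met the rule (7 and 5) are coloured and lie at lower right.

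Enzymes that modify transfer RNA and the caps of RNA formed a group of 10 (6 called higher at 41.5 °C, median rise 0.47). METTL1, which places 7-methylguanosine on transfer RNA, read 6.48 and 6.55 at 37 °C (control, IR), 7.15 and 7.38 at 41.5 °C and 6.19 and 6.50 at 44 °C. Its 41.5 °C arrays were above the others, and HT 44 was the lowest. WDR4, the non-catalytic partner of METTL1, was also a member, with a difference of 0.32 that was not called. TP53RK, the kinase of the KEOPS complex that acts on transfer RNA, rose by 0.67. YJU2, a splicing factor, rose by 0.52 in a group of 7 genes of splicing and mRNA export with 3 called and a median rise of 0.37.

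Ubiquitin ligases, their adaptors and deubiquitinases made up 17 genes, 12 of them called higher at 41.5 °C, with a median rise of 0.53. STAMBPL1, a deubiquitinase that cuts lysine-63 chains, read 6.0 and 5.91 at 37 °C (control, IR), 6.94 and 6.77 at 41.5 °C and 5.73 and 5.86 at 44 °C, which put its 44 °C arrays lowest. TRIML2, a member of the tripartite motif family without a RING domain, read 6.43 and 6.68, then 7.76 and 8.09, then 7.16 and 7.06. It shared the largest mean rise with FJX1 (2.58-fold) and stayed above 37 °C at 44 °C. Genes named TRIM or TRIML gave 7 members of 38 at level, beside 2.47% of the 7806 genes, with a family median of 0.14. TRIM35 was among them (a difference of 0.61, not called). Gene families were counted after the members were seen, so this share tests nothing. Counted alike, KLHL gave 2 of 23, VPS 2 of 34 and WDR 2 of 49, while DDX gave 4 of 27 and URB 2 of 2. FBXO30, an F-box protein, rose by 0.58, KCTD5, an adaptor of cullin 3 ligases, by 0.64, and DET1, an adaptor of cullin 4 ligases, by 0.71.

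The 16 transcription factors and chromatin proteins, 12 called higher at 41.5 °C, had a median rise of 0.55. BCL9L, a coactivator of beta-catenin, read 7.62 and 7.56 at 37 °C (control, IR), 8.42 and 8.37 at 41.5 °C and 7.63 and 7.47 at 44 °C. Its rise was nearly the same without (0.80) and with radiation (0.80), although a second, dimmer feature of the gene did not share it. MSC, the basic helix-loop-helix repressor musculin, read 5.12 and 5.16, then 5.85 and 6.34, then 4.95 and 4.98, and the irradiated 41.5 °C array was the highest. MAMLD1, a Mastermind-like coactivator, read 5.68 and 5.44, then 6.32 and 6.20, then 5.41 and 5.29. In MAMLD1 the control was the highest of the 4 arrays outside 41.5 °C. NCOA5, a nuclear receptor coregulator, rose by 0.86, SIM2, a basic helix-loop-helix and PAS domain factor, by 0.65, and the histone chaperone ASF1A by 0.57.

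TIPARP, a mono-ADP-ribosyltransferase that acts on the dioxin receptor, had the largest rise among 7 stress and metabolic enzymes, of which 3 were called higher at 41.5 °C. It read 7.37 and 7.42 at 37 °C (control, IR), 8.46 and 8.40 at 41.5 °C and 7.47 and 7.61 at 44 °C. TIPARP thus rose 2.05-fold, and both 44 °C arrays were slightly above 37 °C. ODC1, the first enzyme of polyamine synthesis, rose by 0.63, and HMOX1, the haem-degrading oxygenase, by 0.62. SFN, the 14-3-3 sigma protein that restrains the cell cycle, read 8.41 and 8.63, then 9.12 and 9.64, then 8.34 and 8.25. SFN was highest where 41.5 °C and radiation met, and lowest at 44 °C. CCND1, cyclin D1, rose by 0.61, and all 4 cell cycle members were called. Of 10 mitochondrial proteins (5 called, median rise 0.50), PPIF, cyclophilin D of the permeability pore, rose by 0.62 and MTX3, a metaxin of the outer membrane, by 0.54. SYTL2, a Rab27 effector, rose by 0.72, the most of 10 membrane traffic genes (7 called, median 0.43). The remaining 42 members, 25 of them called, were placed in no group, and their differences ran from 0.31 to 0.79. The 6 of them with a wide margin were RANBP6, an importin-like protein (0.72), GLIPR1 (0.75), TMEM87A (0.54), the LIM protein LMCD1 (0.55), the calcium-binding NECAB2 (0.79) and the oxidised LDL receptor OLR1 (0.56), beside POLR3B above.

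The other lists held 0 to 2 genes each that met the rule, which 2.82% of the 7806 genes did. Several lists were measured only in part: 4 of 16 NRF2 targets, 4 of 22 integrin, laminin and plasminogen genes, 9 of 19 p53 targets and 8 of 15 heat shock chaperones. Genes set aside at the start, which also met the differences, are on none of them. A count of 0 below thus covers only the listed genes that were measured at level, and TP53I3, a member induced by p53, is not on the p53 list. The rule was met by 1 of 16 genes at level on the list of EGF receptor ligands and ERK feedback (EREG), 1 of 4 NRF2 targets (HMOX1), 2 of 11 YAP and TEAD targets (FJX1, AJUBA), 1 of 1 integrin, laminin and plasminogen gene (THBS1) and 1 of 29 G1/S and replication genes (CCND1). It was met by 0 of 8 heat shock chaperones, 0 of 17 AP-1 and serum response factors, 0 of 12 ATF4 targets, 0 of 9 cholesterol synthesis genes, 0 of 8 natural killer and T cell ligands and 0 of 9 p53 targets. The chaperones followed another course: the list median was 1.04 at 41.5 °C against 37 °C and a further 0.53 at 44 °C against 41.5 °C. Limma called 7 of the 8 higher in the first comparison (2.18% of all genes) and 6 in the second (4.9%). HSPA6, the lowest at 41.5 °C, differed by 0.18 there (limma, adjusted p = 0.546) and by 3.03 at 44 °C against 41.5 °C. In that second comparison HSPB1 (-0.02, adjusted p = 0.918) and HSPA4L (0.25, adjusted p = 0.193) were not called. HSPA1B, an HSP70 gene whose signal can be shared with its near-identical copy HSPA1A, was higher by 1.87 ± 0.08 (SE) at 41.5 °C (limma, adjusted p = 2.11e-06) and by another 0.80 at 44 °C (adjusted p = 0.00016).

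At 44 °C the median difference of the members from 37 °C was -0.13 without and -0.05 with radiation, beside -0.07 and -0.04 for the 7806 genes. Within 0.3 in both pairs were 132 members (68.4%), a share close to the 65.7% of the 7806 genes. Lower by more than 0.3 in both were 11 (5.7%, against 4.71%), and higher in both 3 (1.55%, against 5.41%). For TRIML2 (0.56), THBS1 (0.47) and PPTC7 (0.35), a mitochondrial phosphatase, the higher level was thus not limited to 41.5 °C. Both differences were negative in 101 members (52.3%), against 44.4% of the 7806 genes, and positive in 31. The lowest were GEMIN4 of the SMN complex (-0.62), NOP2 (-0.50), ARL14EP (-0.49), MOCS3, a sulfur carrier enzyme for transfer RNA and molybdenum cofactor (-0.47), RRS1 (-0.45) and TP53I3 (-0.44). GEMIN4 read 7.76 and 7.66 at 37 °C (control, IR), 8.12 and 8.03 at 41.5 °C and 7.0 and 7.18 at 44 °C, so its fall at 44 °C went well past its starting level. By group the median ran from -0.17 for the ubiquitin genes to 0.08 for the 4 cell cycle genes. The ribosome assembly group had a median of -0.13 with 22 of 32 genes negative in both pairs; these were -0.17 with 27 genes after quantile normalization and -0.18 with 23 after median centring. Those scalings put the median of all members at -0.13 and -0.14 in place of -0.09, and that of the 7806 genes at -0.10 in both in place of -0.06.

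**Figure D4:**
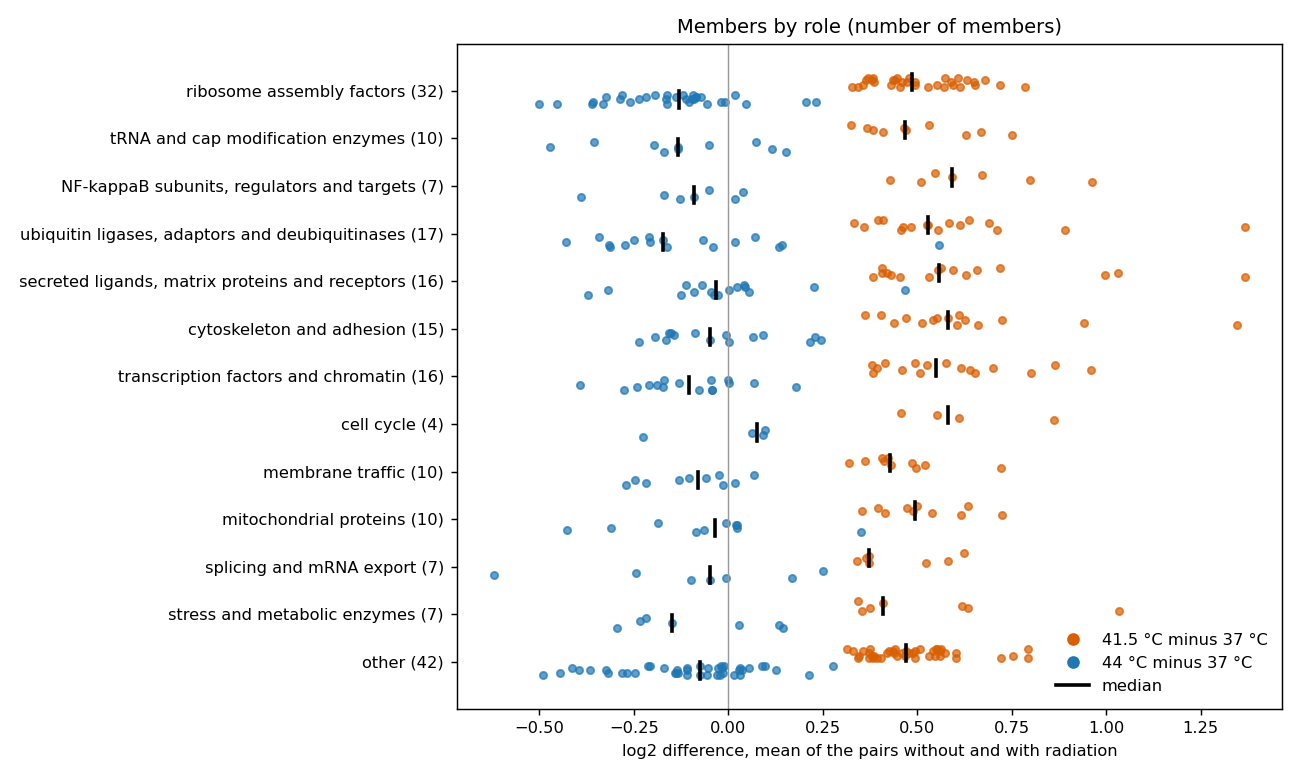
Distribution over the members of each functional group of the mean log2 difference between 41.5 °C and 37 °C and between 44 °C and 37 °C (x axis, mean of the pairs with and without radiation). Each point is a gene and the black bar is the median. The rises at 41.5 °C are fixed above 0.3 by the choice of genes, and the medians at 44 °C lie between -0.17 and 0.08.

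Radiation differences did not choose the genes, though the rule limits how far the rises with and without radiation differ, which enters the residual. In the additive limma model of all 6 arrays, 0 of the 193 members were called at an adjusted p under 0.05, where 0 of 14884 genes (0.0%) were. The 9 measured genes of the p53 target list also gave 0 calls, at a median radiation term of 0.57. The lack of calls thus does not show that radiation had no effect on the members. At an unadjusted p under 0.05 there were 13 members (6.74%), 8 higher and 5 lower with radiation, against 733 of all genes (4.92%). The lowest adjusted p among members was 0.585, for NOPCHAP1 (0.36 ± 0.07 SE), a chaperone-binding factor for box C/D particles, and the lowest of any gene 0.0562. The median radiation term was 0.01 over members and 0.00 over all genes, with extremes of -0.26 (TMEM51) and 0.43 (LACC1, ± 0.15 SE, adjusted p = 0.875). By single pairs, the median radiation difference of the members was -0.05 at 37 °C, -0.01 at 41.5 °C and 0.06 at 44 °C, beside -0.02, -0.01 and 0.03 for the 7806 genes. The departure from additivity, the combined array plus the control minus both single treatments, had a median of 0.04 at 41.5 °C (0.01 for the 7806 genes) and 0.12 at 44 °C (0.04). A departure of 0.3 or more in size occurred in 8.81% of members and 17.5% of the 7806 genes at 41.5 °C, a share that the rule limits by demanding the rise in both pairs, and in 18.1% and 18.9% at 44 °C. One array a group leaves no test of these departures.

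Radiation differences at single temperatures set a few members apart. A difference of 0.3 or more at both lower temperatures was found in 4 members (2.07%, against 0.935% of the 7806 genes): LACC1, TP53I3, TRIM35 and NOPCHAP1. LACC1, a purine-metabolizing laccase domain enzyme, read 6.14 in the control, 6.86 in IR, 6.63 in HT 41.5, 7.35 in IR_HT 41.5, 6.18 in HT 44 and 6.03 in IR_HT 44. Its radiation difference was 0.72 at both 37 °C and 41.5 °C and -0.16 at 44 °C. TP53I3, a quinone oxidoreductase induced by p53, read 7.30, 7.70, 7.73, 8.37, 7.07 and 7.04 in the same order, giving 0.40, 0.64 and -0.03. In these genes the irradiated 41.5 °C array was the highest of the 6, and both 44 °C arrays were low. TRIM35, a ubiquitin ligase, had 0.49, 0.40 and -0.12, and NOPCHAP1 0.34, 0.38 and 0.37, which makes it the member whose radiation difference was alike at all temperatures. The call of 0 members depends on the 44 °C arrays: without either of them, 2 members, LACC1 and TP53I3, and 85 of all genes were called, and in the 4 arrays at 37 °C and 41.5 °C, a fit chosen after these values were seen, the same 2 members and 87 genes (0.585%). These counts are no test for the members, since the genes were picked for those differences and the residual of the 4-array fit is the departure at 41.5 °C, which the rule limits. In the fit of all 6 arrays the adjusted p of TP53I3 was 0.855.

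**Figure D5:**
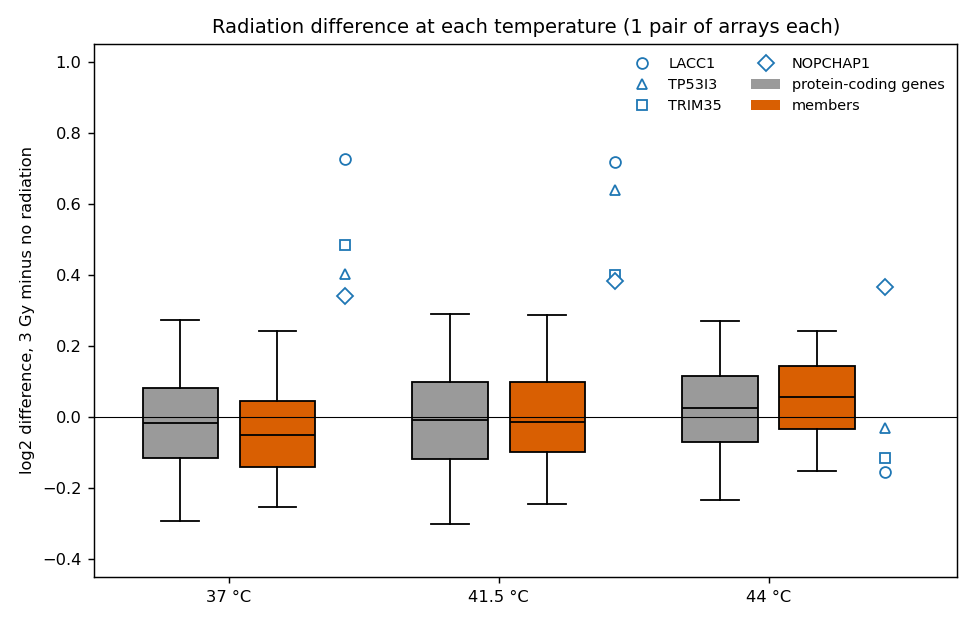
Radiation difference on the log2 scale at 37, 41.5 and 44 °C for members and for all 7806 genes (boxes: quartiles, whiskers: 5th to 95th percentile). The 4 members at 0.3 or more at both 37 °C and 41.5 °C are drawn as symbols. LACC1, TP53I3 and TRIM35 fall below 0 at 44 °C and NOPCHAP1 stays near 0.37.

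Other motifs were counted in the same promoters, each searched on both strands and counted on its own whether or not it overlapped another, and no test was made of the shares. The 2-unit heat shock element (GAANNTTC or TTCNNGAA) was in 10.3% of 156 members, 9.41% of the 6492 matched genes at level and 13.7% of all promoters, and the 3-unit form, which contains the shorter one, in 0.0%, 0.339% and 0.487%. The AP-1 site TGANTCA was in 5.77%, 4.31% and 7.76%, the cyclic AMP element TGACGTCA in 2.56%, 3.23% and 1.98%, and the CArG box in 0.641%, 0.986% and 1.29%. The antioxidant element TGACNNNGC was in 9.62%, 14.9% and 13.6%, and the TEAD site CATTCC in 13.5%, 10.7% and 14.0%. Of the more common motifs, the ETS site CCGGAAG was in 23.7%, 19.7% and 10.7%, the GC box GGGCGG in 65.4%, 72.1% and 44.6% and the TATA box TATAAA in 5.77%, 5.3% and 12.0%. Median GC content was 63.0% for members, 65.7% for genes at level and 58.3% for all promoters. The NF-kappaB site was in 3 of 6 promoters of the NF-kappaB group (NFKB1, CXCL2, CFLAR) and in 10 of the 150 others (6.67%). The E-box CACGTG was in 14.7% of members (23), 10.1% of genes at level and 7.43% of all promoters, and within the members in 11 of 27 ribosome assembly promoters (40.7%) and 12 of 129 others (9.3%). The ETS site was likewise in 11 of the 27 ribosome assembly promoters (40.7%), and in 26 of the 129 others (20.2%). On the separate ribosome biogenesis list the E-box was in 1 of 5 genes that met the rule and 3 of 6 that did not. In UTP25 it begins 15 bases and in PUM3 42 bases after the start of the gene.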

How the data were processed

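RNA of 6 samples (300 ng each) was labelled with biotin and hybridised to Affymetrix arrays, 1 per group, per the labels' protocols. The deposited log2 values were made by the authors with Affymetrix Expression Console 1.1 and RMA, per the submitters' processing notes; RMA makes arrays alike in distribution and can hide a shift of all genes. The genome build of the probes was not given in the sources used here. Platform annotation named 1 gene for 16098 of 53617 features (30.0%).

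The values were used as deposited. Differences between single arrays carry no test. limma 3.58.1 (R 4.3.3) fitted temperature as a factor plus radiation to 14884 genes with an intensity trend (2 residual and 8.06 prior degrees of freedom), two-sided, Benjamini-Hochberg adjusted over all genes. The code was run on simulated data that held radiation effects alone. Those data had no temperature effect and no interaction, so that run does not check the fit where either is present. Residuals hold any interaction with noise.

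Members and lists were chosen with earlier results of these data known; the functional groups, and the E-box among the motifs, were added after the values were seen. Named are the 60 members with the largest smallest difference (0.451 or more; a few are not reported here), with every array for the first 15, and in lists the genes that met the rule and the highest or lowest; members named beyond these for an extreme value, a radiation difference or a partner were chosen after their values were seen. Alternatives were other limits, scalings, feature summaries, moderation and leaving out each array.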

Additional observations from a re-analysis of the deposited data

Results flagged for a closer look

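Of the 11643 unnamed features at a mean log2 level of 5 or more, 394 (3.38%) met the 4 differences that define the 193 genes; they have no gene name here and entered no comparison. The radiation difference of 3 members was opposite in sign at 44 °C to that at 37 °C and 41.5 °C, at -0.16 for LACC1, -0.03 for TP53I3 and -0.12 for TRIM35, and this difference between temperatures was not tested.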

How the results depend on the processing

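Of 257 alternative values, 3 had the other sign, all of the median radiation term over members, which was 0.0118 and became -0.0216 in the 4 arrays at 37 °C and 41.5 °C and -0.0215 without either 44 °C array; 28 values moved. The number of members was 410 at a limit of 0.2, 94 at 0.4, 42 at 0.5 and, in an alternative chosen after the data were seen, 374 when the pairs were averaged. It was 158 after quantile normalization and 220 after median centring, and 156 of the 193 met the rule under both. At a limit of 0.4 and of 0.5, 4 genes of the ribosome list met the rule, and at 0.5, 3 of the NF-kappaB list. Without the intensity trend 0 genes of the ribosome list and 0 of the NF-kappaB list were called higher at 41.5 °C; leaving out 1 array in turn gave 0 to 11 and 0 to 5. For radiation, all genes called were 1 after median centring, 1 with the mean of all features and 1 over genes at a level of 5 or more, and 87 in the 4 arrays at 37 °C and 41.5 °C, with 2 members called; leaving out 1 array gave 0 to 85 genes and 0 to 2 members (LACC1 and TP53I3, without either 44 °C array), and a median over members of -0.0215 to 0.0274. No paired analysis was possible because each group has 1 array and the labels give no replicate numbers. The number of arrays limits all of these.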
